A study of Solanum lycopersicum x Solanum pennellii and Solanum lycopersicum and Solanum pennellii with 31 samples.

Results

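Small RNA (sRNA) loci of at least 1000 bp were described in tomato seedlings. They were taken from the table of sRNA loci by 2 criteria alone, a length of at least 1000 bp from the first to the last base of the locus, and a position outside the segments introgressed from the wild species in the lines studied (chromosome 1 from 1 to 86 Mb, chromosome 2 from 44 to 54 Mb and chromosome 8 from 61 Mb to its end, genome build SL2.50). Of 193704 loci outside those segments, 273 met the length limit, which is 0.141%. The table holds 219578 loci in all, 322 of them long, and the 49 long loci inside the segments were left out (39 on chromosome 1, 6 on chromosome 2 and 4 on chromosome 8).

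The libraries came from seedlings of 2 weeks. M82, a cultivar of Solanum lycopersicum, had 2 libraries from separate plants. There was 1 library, from 1 plant, of each of the lines IL8-3, IL2-5 and IL1-1, which are M82 carrying a homozygous segment of Solanum pennellii. They formed the IL group (n = 3), so the spread in that group is a spread between lines, and a difference of 1 line from M82 has no replicate. The methods state that these line libraries had been relabelled, and the long loci left out bear on the labels only in part. The 39 on chromosome 1 had a median log2 ratio to the M82 mean of -0.66 in IL1-1, 0.44 in IL2-5 and -0.12 in IL8-3, and the 6 on chromosome 2 included 3 at 50% or less of the M82 mean in IL2-5 and 0 in each of the other lines, whereas the 4 on chromosome 8 included 0 in IL8-3.

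In plants, most sRNAs outside microRNA genes are cut from double-stranded precursors, which RNA polymerase IV and an RNA-dependent RNA polymerase make at transposons and other repeats. The sRNAs guide RNA-directed DNA methylation to the sequences that they match, and the loci that make them can be inherited as active or silent states. A locus in such a table is a stretch where reads lie close together, so its borders follow the reads of all the libraries it was built from. A long locus is a stretch with few gaps in coverage, as an inverted repeat, a long transposon or a tandem array can give. The counts carry no read size and were not joined to gene or repeat annotation, so the loci are given by their names in the table and their positions.

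The long loci were abundant for their size. They were 1.12% of the base pairs of all loci and held 8.83% of the reads. The share of the library on long loci was 7.70% in M82 replicate 1, 7.38% in M82 replicate 2, 8.97% in IL1-1, 11.5% in IL2-5 and 7.92% in IL8-3. Libraries held 2843012 to 5688499 counts, and the 95% Wilson interval was widest in the shallowest, M82 replicate 2, at 7.35 to 7.41%, which covers counting error only. All lines were above both M82 libraries, IL2-5 by the widest margin and IL8-3 by the smallest. The M82 mean was 7.54% (SD 0.228, n = 2) and the IL mean 9.46% (SD 1.83, n = 3), a difference of 1.92 percentage points (two-sided exact permutation p = 0.2, the smallest that 2 against 3 libraries can give). Without IL2-5 the difference was 0.906. The groups overlapped at a length limit of 500 bp (difference 1.57, exact p = 0.6) or 2000 bp (0.349, exact p = 0.4) and with the introgressed segments kept in (2.27, exact p = 0.4). Locus borders follow the pooled reads of 3 lines and 2 M82 libraries. A locus high in the lines could therefore reach the length limit more easily than a locus high in M82. The effect on this and the later comparisons of the groups at long loci was not tested.

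**Figure D1:**
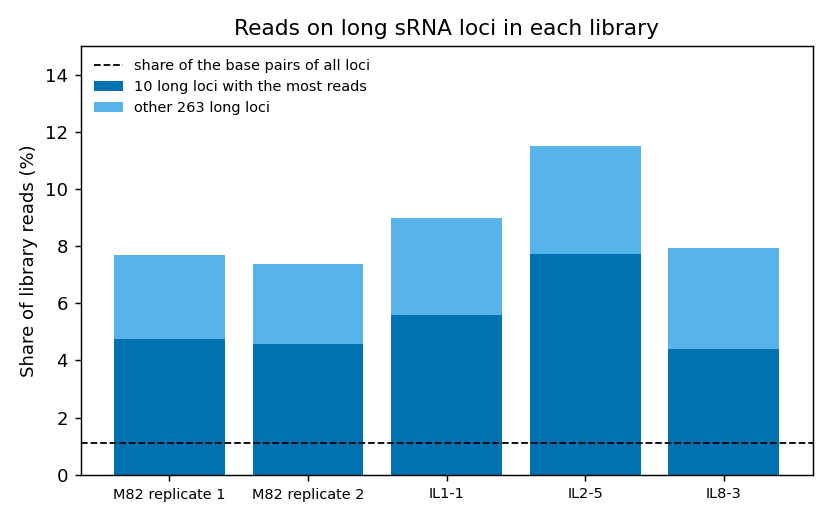
Share of each library's reads (%, y axis) on the long loci, split into the 10 with the most reads (dark) and the other 263 (light). The dashed line marks the 1.12% of locus base pairs that the long loci take up. IL2-5 had the highest bar, at 11.5%.

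A few loci carried most of these reads. The 3 most abundant long loci held 43.4% of the reads of all 273, the top 10 held 62.1% and the top 50 held 89.0%, while the 136 least abundant held 2.27%. The top 10 accounted for 4.76 and 4.57% of the M82 reads, 5.57% in IL1-1, 7.71% in IL2-5 and 4.40% in IL8-3, and here the groups overlapped (exact permutation p = 0.6). The other 263 loci together held 2.94 and 2.81% in M82 and 3.40, 3.78 and 3.52% in the same lines. These groups did not overlap, and their means were 2.88% (SD 0.0925, n = 2) and 3.56% (SD 0.196, n = 3), again at the smallest possible p of 0.2.

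Length and abundance rose together across the long loci. Lengths ran from 1000 to 8380 bp with a median of 1191 bp, against a median of 126 bp for all loci outside the segments. There were 203 loci of 1000 to 1499 bp, 33 of 1500 to 1999 bp and 37 of at least 2000 bp. Abundance is given as CPM, the counts of a library scaled to a common total with TMM factors. The mean over the 5 libraries ran from 2.87 to 15236 CPM with a median of 35.0 CPM, and Spearman's rho between length and mean CPM over the 273 loci was 0.50. Length and counts come from the same reads, so this correlation describes the loci and was not tested. Among the 100 most abundant loci outside the segments, 28 were long, and so were 6 of the top 20.

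**Figure D2:**
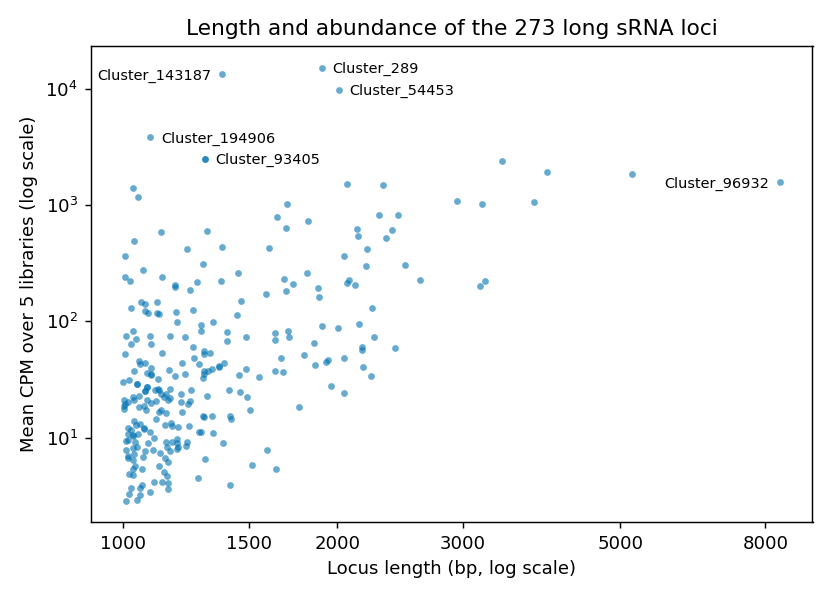
Length (bp, log x axis) and mean CPM over the 5 libraries (log y axis) of each of the 273 long loci, 1 point per locus. The 3 loci near or above 10000 CPM were 1376 to 2008 bp long, while the longest locus, Cluster_96932 at 8380 bp, stood at 1570 CPM.

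Cluster_289 held the most reads of the long loci. It lies at bases 4196932 to 4198831 (1900 bp) of the unplaced sequence, which the build calls chromosome 0. It had 70948 and 29863 counts in M82, 65545 in IL1-1, 121638 in IL2-5 and 74194 in IL8-3, which is 12915, 10828, 14321, 25576 and 12539 CPM in the same order. IL2-5 was high and the other libraries lay close together, with IL8-3 between the M82 libraries. Cluster_143187, next in abundance, lies on chromosome 8 from 46953560 to 46954935. It had 6733 and 9624 CPM in M82, 15890 in IL1-1, 23662 in IL2-5 and 10743 in IL8-3, and here all lines were above both M82 libraries. Cluster_54453, on chromosome 3 from 33137589 to 33139596, had 7367 and 10787 CPM in M82, 10329 in IL1-1, 15367 in IL2-5 and 5189 in IL8-3. Lines lay on both sides of M82. These 3 loci made up 1.35% of the length of the long loci. Each gave nearly all of the long-locus reads of its chromosome, 97.6% on the unplaced sequence, 96.6% on chromosome 8 and 84.0% on chromosome 3.

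The next 3 by abundance stood on chromosomes 11 and 5. Cluster_194906 (chromosome 11, 18739567 to 18740656) had 3740 and 4002 CPM in M82, 2977 in IL1-1, 5743 in IL2-5 and 2685 in IL8-3. Cluster_93405 (chromosome 5, 34099638 to 34100938) had 2281 and 2321 CPM in M82, 2054 in IL1-1, 4616 in IL2-5 and 1272 in IL8-3. At both, IL2-5 was the highest library, IL8-3 the lowest, and IL1-1 was also below M82. Cluster_195164 (chromosome 11, 21199812 to 21201113) had 2236 and 1704 CPM in M82, 2298 in IL1-1, 4026 in IL2-5 and 2161 in IL8-3. Cluster_29051 and Cluster_70179, which complete the 8 most abundant, are also among the 8 longest, at 3407 and 3947 bp. IL2-5 was not their highest library, with 2131 CPM against 1813 and 2940 in M82 at Cluster_29051, and 1225 against 2245 and 2030 at Cluster_70179.

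The longest locus, Cluster_96932 of 8380 bp, lies on chromosome 5 from 60891650 to 60900029. It had 1258 and 1357 CPM in M82, 1915 in IL1-1, 1669 in IL2-5 and 1649 in IL8-3, with all lines above both M82 libraries. Cluster_108812 on chromosome 6 (35990950 to 35996145, 5196 bp) showed the same order of groups, with 1533 and 1499 CPM in M82 against 2149, 1974 and 2131 CPM. Cluster_26935 on chromosome 1 (95637909 to 95641086, 3178 bp) went the other way, with 350.6 and 198.3 CPM in M82 and 178.1, 143.6 and 138.4 CPM in the lines in the same order. The remaining ones of the 8 longest were Cluster_199857 on chromosome 11 (3776 bp) and Cluster_28722 and Cluster_28727 on chromosome 2 (3223 and 3194 bp), at mean levels of 1055, 221 and 1031 CPM.

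Read density was taken in CPM per kb of locus. Borders and counts come from the same reads, so density describes the loci and cannot separate length from abundance. No count minimum was applied, and 23.5% of shorter loci averaged at least 10 counts, whereas all long loci did. The median density over the 273 loci was 24.3 and 24.1 CPM per kb in M82, 24.6 in IL1-1, 25.9 in IL2-5 and 25.6 in IL8-3, a mean of 24.9 (SD 0.784, n = 5). It was 11.4 (SD 0.354) in loci of 500 to 999 bp, 6.61 (SD 0.240) in loci of 200 to 499 bp, 4.54 (SD 0.150) in loci of 100 to 199 bp and 7.69 (SD 0.293) in loci under 100 bp. In each library the long loci were denser than every shorter class. Within the long loci, density was 18.7 CPM per kb (SD 0.901) from 1000 to 1499 bp and 90.3 (SD 25.2) in the 70 loci of at least 1500 bp. In that longest class the median was 71.3 and 60.6 CPM per kb in M82, 95.2 in IL1-1, 125 in IL2-5 and 99.9 in IL8-3. Groups did not overlap there, whereas from 1000 to 1499 bp the lines (19.1, 18.6 and 17.4) lay among and below the M82 values (18.5 and 19.9).

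**Figure D3:**
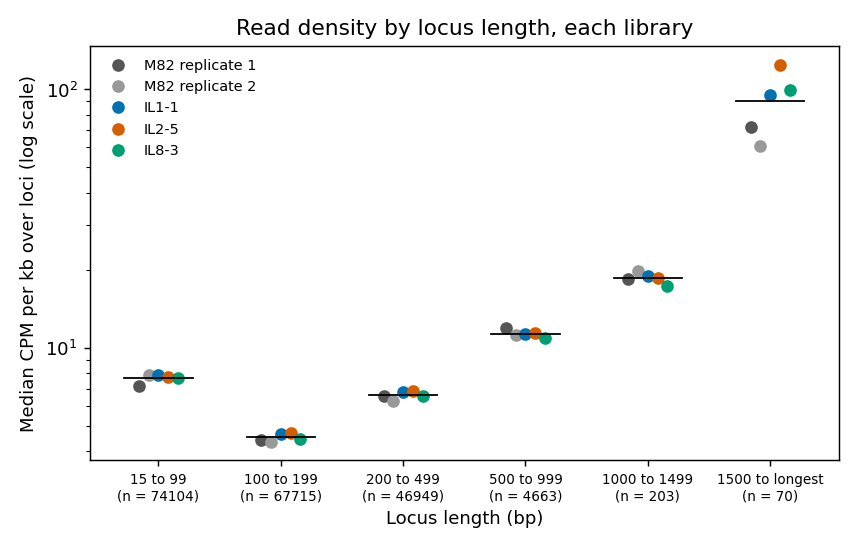
Median read density (CPM per kb, log y axis) over the loci of each length class (x axis, with the number of loci), 1 point per library and a line at the mean of the 5 libraries. Density was lowest from 100 to 199 bp, at 4.54, and highest from 1500 bp upwards, at 90.3, where the lines stood above both M82 libraries.

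Single loci spread far around these medians. The density ran from 2.75 to 9688 CPM per kb, with the middle 50% of loci between 10.8 and 96.0. The densest were Cluster_143187 (9688), Cluster_289 (8019), Cluster_54453 (4884), Cluster_194906 (3513) and Cluster_93405 (1928 CPM per kb), which are also the 5 most abundant and none of which is among the 8 longest. Pooled over all long loci the density was 225 CPM per kb (SD 61.3, n = 5), with 327 in IL2-5 and 174 in M82 replicate 1. At the low end, Cluster_111380 on chromosome 6 had 23, 2, 20, 33 and 19 counts in M82 replicate 1, M82 replicate 2, IL1-1, IL2-5 and IL8-3 over 1413 bp. Cluster_77673 on chromosome 4 had 21, 9, 20, 10 and 14 counts, and Cluster_34975 on chromosome 2 had 23, 7, 13, 14 and 26. Cluster_171532 and Cluster_172570, both on chromosome 10, complete the 5 sparsest, at 2.85 and 2.78 CPM per kb. A length past the limit therefore did not require many reads.

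At the length limit itself, the 3 loci just inside were Cluster_130730 (1000 bp, mean 30.2 CPM), Cluster_36397 (1002 bp, 21.2 CPM) and Cluster_135321 (1002 bp, 17.6 CPM). The 3 just outside were Cluster_195171 (998 bp, 235 CPM), Cluster_101144 (997 bp, 55.7 CPM) and Cluster_148639 (997 bp, 14.02 CPM). The ranges on both sides overlapped.

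Along the genome, long loci were unevenly shared between chromosomes. They made up 0.276% of the loci on chromosome 11 (43 loci), 0.256% on the unplaced sequence (10), 0.193% on chromosome 6 (33) and 0.182% on the part of chromosome 2 outside the segment (22). The shares were 0.0837% on chromosome 3 (17 loci), 0.0906% on chromosome 9 (16) and 0.0654% on the small part of chromosome 1 outside the segment (5). Chromosome 11 also had the highest median density, 52.0 CPM per kb, and chromosome 1 the lowest, 7.45.

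Within chromosomes, long loci followed the loci in general in number, while a few loci set where their reads lay. On the 9 chromosomes with no introgressed segment (3 to 7 and 9 to 12), each cut into 10 parts of equal length up to its last locus, 114 of 221 long loci lay in the outer parts, 1 and 10. This is 51.6% (95% exact binomial interval 44.8 to 58.3%), and 48.0% of all loci lay there too. The outer parts held 35.6% of the reads on long loci, against 49.2% of the reads on all loci. For loci of at least 500 bp and of at least 2000 bp the share of reads there was 46.2 and 49.8%. Parts 3 to 6, where loci are scarce, held 32 long loci, 14.5% of them, but 50.1% of the reads on long loci. Single loci weighed heavily in these reads. In part 5, Cluster_54453 had 221283 of the 231544 reads, and in part 6, Cluster_93405 had 57818 of 110775. The median density of parts 3 to 6 was 105 CPM per kb, against 23.9 in the outer parts. It was 118, 471 and 338 in parts 3, 4 and 5, with 8, 7 and 3 long loci, but 28.1 in part 6, with 14. The median length of 1199 bp was close to the 1213 bp in the outer parts. The parts were grouped after their values were seen.

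In the middle group IL2-5 was high at most loci. Over its 32 loci the median density was 87.7 and 86.3 CPM per kb in M82, 107 in IL1-1, 185 in IL2-5 and 80.2 in IL8-3. IL2-5 was above both M82 libraries at 27 of the 32 loci and below both at 3, with a median log2 ratio to the M82 mean of 0.85. IL1-1 was above both at 16 and below both at 9 (median 0.22), and IL8-3 was above both at 10 and below both at 14 (median -0.13). With library totals in place of TMM factors the median in IL2-5 was 0.61, and it was again above both M82 libraries at 27 loci. In the other parts, the 189 long loci had a median of 0.20 in IL2-5 with TMM factors and -0.03 with library totals, so that the sign of this pooled median depended on the scaling. Part 2 alone, with 11 of these loci, had a median of 0.86 in IL2-5, 0.54 in IL1-1 and 0.58 in IL8-3, with 7 of the 11 above the M82 mean in IL2-5, so a high median in that line was not limited to parts 3 to 6. Of 3419 shorter loci of the same middle parts averaging 10 counts or more, 1240 were above both M82 libraries in IL2-5 and 1026 below both (median 0.01). Of the 378 averaging at least 100 counts, 199 were above and 53 below (median 0.35). A difference between long and shorter loci was not tested.

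**Figure D4:**
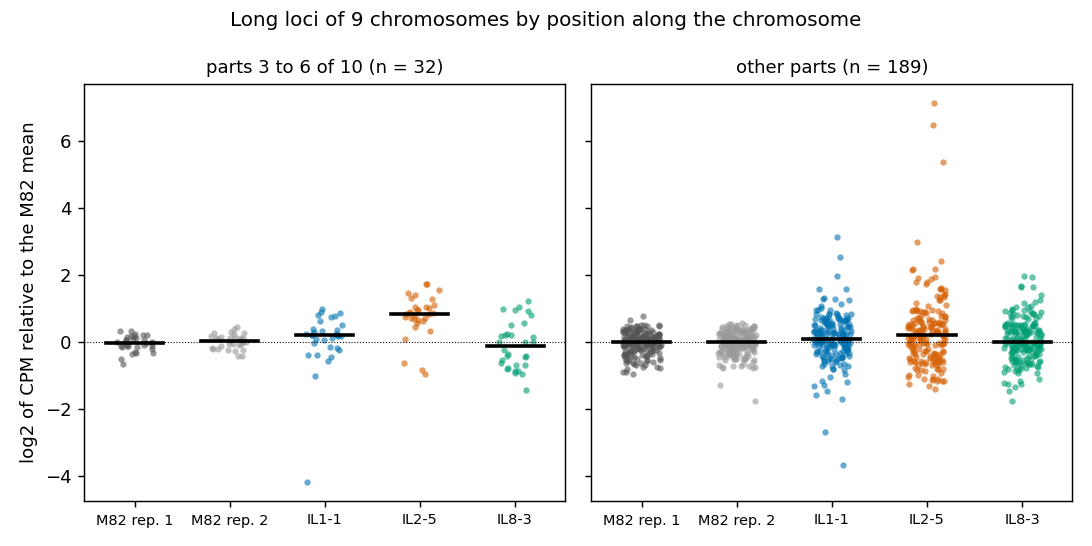
log2 of CPM in each library relative to the mean of both M82 libraries (y axis, 0.5 CPM added), 1 point per long locus, for parts 3 to 6 of 10 along 9 chromosomes (left) and the other parts (right). Black bars are medians. In the left panel the IL2-5 median was 0.85 and its points lay mostly above 0.

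Long loci tended to have close neighbours. The median gap to the nearest locus was 157 bp, against 360 bp for shorter loci, and 75 long loci (27.5%) had a neighbour within less than 100 bp, against 13.5% of shorter loci. There were 26 runs of long loci with gaps under 10 kb, which held 63 loci, and the other 210 stood alone. The longest run lies on chromosome 5 from 60891650 to 60914831 and begins with the longest locus. It joins 5 long loci (Cluster_96932 to Cluster_96935, and Cluster_96942) with 104939 reads. Their summed level was 3360 and 3699 CPM in M82, 5343 in IL1-1, 5034 in IL2-5 and 4712 in IL8-3, with all lines above both M82 libraries. The run on chromosome 3 from 3753072 to 3768027 (3 loci) stood at 124 and 117 CPM in M82 and at 180, 183 and 169 CPM in the lines, and the run on chromosome 9 from 54821044 to 54834473 (3 loci) at 192 and 193 CPM against 134, 89.8 and 103 CPM. Members of a run are neighbours, so their values are not independent of each other.

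The long loci were detected in nearly every library. In all, 272 of the 273 had reads in each of the 5 libraries, against 56.5% of shorter loci, and all 273 had a mean of at least 10 counts, against 23.5%. The order of the loci was also kept between libraries, with Spearman's rho from 0.875 (M82 replicate 2 and IL2-5) to 0.964 (M82 replicate 1 and IL8-3), against 0.670 to 0.836 for shorter loci averaging at least 10 counts. Neither detection nor rho was compared at like counts. The mean count of the long loci had a median of 166, whereas 27217 of the 45528 shorter loci used for rho averaged 10 to 30 counts. Only the spread, which also depends on depth, was compared at like counts.

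The spread of a locus over the 5 libraries was taken as the coefficient of variation (CV) of its CPM. Its median was 30.7% over the long loci, with the middle 50% between 21.4 and 41.3%, and 35.0% over shorter loci averaging at least 10 counts. At 10 to 30 counts, the class with most of these shorter loci, the medians were 31.1% (24 long loci) and 37.6% (27217 shorter loci). Between 30 and 100 counts they were 31.0% (78 long loci) and 30.9% (shorter loci), from 100 to 300 counts 29.1 and 30.2%, and from 300 to 1000 counts 29.8 and 32.6%. From 1000 to 3000 counts they were 32.2% (32 long loci) and 40.7% (189 shorter loci), and above that 33.8% (23 long loci) and 44.04% (63 shorter loci). Among all loci averaging at least 50 counts the long ones were higher by 0.0698 percentage points. Loci from 500 bp to the length limit, the nearest in length, stood below the long loci at 30 to 100 counts (27.3%) and at 100 to 300 counts (26.6%). They stood above them in the other classes, at 33.1% (10 to 30 counts), 30.7% (300 to 1000), 43.2% (1000 to 3000) and 44.95% (above that). The steadiest long locus averaging at least 50 counts was Cluster_77414 on chromosome 4 (52881785 to 52882895), with 18.6 and 23.2 CPM in M82, 19.9 in IL1-1, 20.6 in IL2-5 and 20.3 in IL8-3 (CV 8.27%). It was followed by Cluster_87366, Cluster_37318, Cluster_213172 and Cluster_125532, at CVs from 10.6 to 11.4%.

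At the other end, 4 long loci were read almost entirely in 1 line. Borders follow the reads of all the libraries, so these loci met the length limit mainly through the line in which they were high. Their length and their pattern over the libraries are therefore not separate results. Cluster_2598 (unplaced sequence, 16693531 to 16694891) had 947 counts in IL1-1 and 0 in each of the other 4 libraries, each of which is compatible with up to 3 counts at this depth. It was 1 of the 2 long loci that were not tested, since the filter asks for enough reads in more than 1 library. The 6 shorter loci within 10 kb of it had 18, 16, 12, 13 and 22 reads in the order M82 replicate 1, M82 replicate 2, IL1-1, IL2-5, IL8-3, and the neighbours did not share the signal. Cluster_154147 and Cluster_154155 lie 5.92 kb apart on chromosome 9 (1429807 to 1431472 and 1437390 to 1438644). The first had 7 and 3 counts in M82, 9 in IL1-1, 1128 in IL2-5 and 16 in IL8-3. At the second there were 13 and 9 counts in M82, 10 in IL1-1, 1394 in IL2-5 and 11 in IL8-3. On the CPM scale IL2-5 was 87.7 and 89.8 times the next library at these loci. The 15 shorter loci within 10 kb of the first summed to 134 CPM in IL2-5 and to 14.02 to 22.1 CPM elsewhere, while the 13 around the second summed to 17.0 CPM in IL2-5 and to 14.1 to 17.6 CPM elsewhere. Cluster_187232 on chromosome 10 (65100306 to 65101540), the other locus not tested, had 6 and 2 counts in M82, 8 in IL1-1, 277 in IL2-5 and 5 in IL8-3, and IL2-5 was 33.3 times the next library, with 45.6 CPM over its 14 shorter neighbours against 28.3 to 37.5 CPM elsewhere. The placed loci lie outside the introgressed segments by the rule that chose them, and the place of Cluster_2598 in the genome is not known.

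Another locus was high in 1 line over a background in all libraries. Cluster_186936 on chromosome 10 (64627872 to 64629728) had 160 and 54 counts in M82, 997 in IL1-1, 148 in IL2-5 and 178 in IL8-3, with IL1-1 holding 66.5% of its summed CPM. The opposite pattern, a single library far below the rest, was seen in IL1-1 at 3 loci, chosen after their values were seen. Cluster_177695 on chromosome 10 (36684454 to 36685661) had 193 and 81 counts in M82, 6 in IL1-1, 425 in IL2-5 and 369 in IL8-3, and the 8 shorter loci within 10 kb were low in the same library, with M82 at 68 and 48 reads, IL1-1 at 3, IL2-5 at 202 and IL8-3 at 128. Cluster_157546 on chromosome 9 (6790159 to 6791250) had 161 and 60 counts in M82, 7 in IL1-1, 429 in IL2-5 and 176 in IL8-3. Its 3 shorter neighbours had 14 and 8 reads in M82, 12 in IL1-1, 3 in IL2-5 and 10 in IL8-3, too few for a comparison. Cluster_202272 on chromosome 11 (54896576 to 54897608) had 638 and 204 counts in M82, 66 in IL1-1, 504 in IL2-5 and 626 in IL8-3, and its 16 shorter neighbours summed to 64.9 CPM in IL1-1, between the 59.7 CPM of IL8-3 and the 88.1 CPM of M82 replicate 2.

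**Figure D5:**
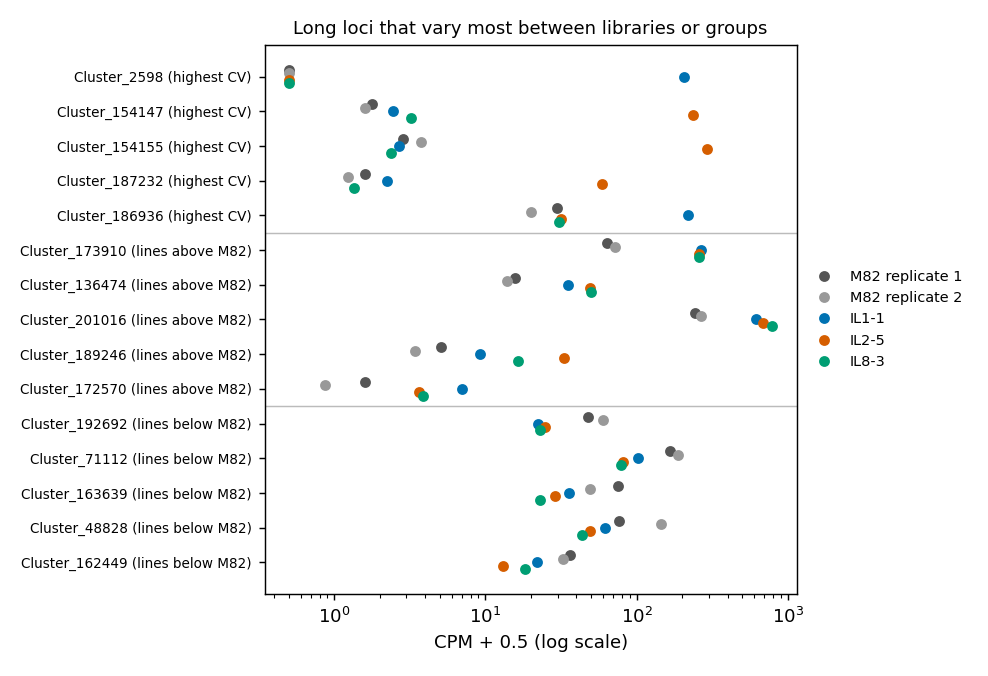
CPM (log x axis, 0.5 added) in each of the 5 libraries at the 5 long loci with the highest CV, the 5 with the smallest p whose lines all lie above both M82 libraries, and the 5 whose lines all lie below. At the top, 1 line stands far from the other libraries, as in Cluster_2598 with 207 CPM in IL1-1 and 0 elsewhere.

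Each line was then set against both M82 libraries over the 273 loci. IL2-5 was at least 2-fold above both at 35 loci (12.8%, against 5.6% of all loci outside the segments averaging at least 10 counts) and at least 2-fold below both at 6 (2.20%, against 5.05%). IL1-1 was 2-fold above at 10 (3.66%, against 5.12%) and below at 9 (3.297%, against 4.09%), and IL8-3 was above at 10 (against 5.08%) and below at 5 (against 4.57%). M82 replicate 2 against M82 replicate 1 gave 19 loci above (6.96%, against 13.3%) and 17 below (6.23%, against 16.5%), which is the scale of difference between plants of 1 genotype, though against 1 library in place of both. All 3 lines were at least 2-fold above both M82 libraries at 5 loci (1.83%, against 1.36% of shorter loci) and below at 0 (against 0.646%). The median log2 ratio to the M82 mean was 0.10 in IL1-1, 0.28 in IL2-5 and -0.00168 in IL8-3. With library totals alone the median in IL2-5 was 0.06 and its counts were 28 above and 12 below. Against a single M82 library in place of both, the counts above were 47 to 65 in IL2-5, 26 to 27 in IL1-1 and 19 to 38 in IL8-3, and those below were 12 to 21, 13 to 19 and 14 to 23, so that they depend on the M82 plant used.

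Between the groups, no long locus passed the test. With edgeR's quasi-likelihood test over all 62065 loci that passed the filter, 0 of the 271 long loci tested had a Benjamini-Hochberg adjusted p under 0.05, and 0.00644% of all tested loci (4 loci) did. At an unadjusted p under 0.05 there were 29 long loci, or 10.7%, against 10.4% of all tested loci. Of these 20 were higher in the lines (7.38%, against 4.88%) and 9 lower (3.32%, against 5.48%), but with library totals alone the split was 14 and 14, with 1976 and 4371 of all loci, and without IL8-3 it was 17 and 1. Both directions together, the count was 16 of 270 long loci without IL2-5, against 4218 of all 58009 loci tested. Without IL8-3 it was 18 of 270, against 3536 of 56003. The median log2 fold change of the lines against M82 was 0.17 over the long loci and -0.02 over all tested loci, and 170 of the 271 were above 0, against 48.9% of all. With library totals alone these medians were 0.04 and -0.14, so that the direction over the long loci is mostly relative to the other loci. All 3 lines lay above both M82 libraries at 70 of the 271 (25.8%, against 14.7% of all tested loci) and below both at 35 (12.9%, against 15.2%). With library totals alone the counts were 54 (19.9%, against 10.7%) and 44 (16.2%, against 19.0%). The long loci were chosen by a length that comes from the pooled reads of these same libraries, most of them lines. The effect of that choice on these counts was not tested. DESeq2 with shrinkage called 4 long loci, all higher in the lines, of the 240 to which it gave an adjusted p (1.17% of all loci with one), and without shrinkage also 4 (against 1.21%). edgeR's likelihood ratio test called 1 (against 0.976%).

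The smallest p among the long loci was that of Cluster_173910 on chromosome 10 (4137101 to 4138791, 1691 bp). It had 63.2 and 71.8 CPM in M82, and 266, 258 and 260 CPM in the lines in the same order. All lines were at a like level, and the groups were far from overlapping. The M82 mean was 67.5 CPM (SD 6.10, n = 2) and the IL mean 261 CPM (SD 4.33, n = 3). The fold change was 1.95 on the log2 scale (standard error 0.36, edgeR unadjusted p = 0.000662, adjusted p = 0.424). DESeq2 with shrinkage gave an adjusted p of 9.19e-06 and the likelihood ratio test 0.0135 for the same counts. The 15 shorter loci within 10 kb summed to 48.2 and 39.5 CPM in M82 and to 87.8, 118 and 86.5 CPM in the lines.

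The other loci of this kind were as follows. Cluster_201016 on chromosome 11 (53108181 to 53110524) had 242 and 265 CPM in M82 and 613, 685 and 792 CPM in the lines in the same order. The fold change was 1.45 on the log2 scale (standard error 0.39). Cluster_136474 on chromosome 8 (1476546 to 1477663) had 15.3 and 13.4 CPM in M82 and 34.5, 48.8 and 49.2 CPM in the lines. The fold change was 1.61 on the log2 scale (standard error 0.36). DESeq2 with shrinkage called both, with adjusted p-values of 0.00706 and 0.0249, and also Cluster_202032 on chromosome 11 (54529004 to 54530649, adjusted p = 0.00838), which is named here only because it was called. It had 360 and 420 CPM in M82 and 927, 1037 and 1210 CPM in the lines. Cluster_189246 on chromosome 11 (2705194 to 2706236) had 25 and 8 counts in M82 and 40, 155 and 94 in the lines, and Cluster_172570 on chromosome 10 (2347848 to 2348893) had 6 and 1 against 30, 15 and 20, so that both rest on few M82 reads. Their log2 fold changes were 2.30 (standard error 0.62) and 2.37 (standard error 0.65). In edgeR's quasi-likelihood test the adjusted p of these 4 named by the rule was 0.424. The shorter loci within 10 kb of Cluster_201016 summed to 59.0 and 63.1 CPM in M82 and to 66.9, 63.9 and 54.2 CPM in the lines. Those near Cluster_136474 stood at 23.7 and 25.4 CPM against 26.2, 22.5 and 27.4 CPM. Near Cluster_189246 and near Cluster_172570, all lines were above both M82 libraries in this sum.

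Among long loci lower in all lines, Cluster_192692 on chromosome 11 (8244217 to 8245514) had the smallest p. It had 47.0 and 59.5 CPM in M82 and 21.6, 24.2 and 22.6 CPM in the lines in the same order. The fold change was -1.23 on the log2 scale (standard error 0.32, edgeR adjusted p = 0.424). Cluster_71112 on chromosome 4 (6541862 to 6542934) had 165 and 186 CPM in M82 and 101, 81.2 and 78.4 CPM in the lines (log2 fold change -1.02, standard error 0.34). At Cluster_163639 on chromosome 9 (60481684 to 60483545) the M82 libraries stood at 75.4 and 49.0 CPM and the lines at 35.2, 28.6 and 22.3 CPM. At Cluster_48828 on chromosome 3 (3642649 to 3643811) they stood at 75.9 and 145 CPM against 61.2, 48.8 and 42.9 CPM, with more spread within M82 than between its replicate 1 and the lines. Cluster_162449 on chromosome 9 (54821044 to 54822174), the first locus of the run on that chromosome, had 35.7 and 32.3 CPM in M82 and 21.4, 12.6 and 17.7 CPM in the lines. The log2 fold changes of these last 3 were -1.13, -1.12 and -0.98, with adjusted p-values from 0.424 to 0.434. Without M82 replicate 2 the value at Cluster_48828 was -0.56, and without M82 replicate 1 that at Cluster_163639 was -0.74.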

How the data were processed

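The table of sRNA counts in seedlings was used. According to the methods, the authors ran ShortStack at default settings on the reads of the 5 libraries against build SL2.50 (cultivar Heinz), and deposited raw read counts per locus. Where a read matches several places, its placement among near-identical copies is uncertain, so counts of repeated loci may be split. Tables of reads on 1 other locus were not used here, nor were the Micro-Tom, S. pimpinellifolium, leaf, flower and pollen libraries.

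Library totals ran from 2843012 to 5688499 counts, and TMM factors from 0.897 to 1.13. Counts were fitted in R 4.3.3 with edgeR 4.0.16 (filterByExpr, TMM, glmQLFit, glmQLFTest, group as the only term), with Benjamini-Hochberg adjustment over 62065 loci and a threshold of 0.05. A standard error is the log2 fold change divided by the root of its F statistic. DESeq2 1.42.0, other scalings, filters and left-out libraries were alternatives. In simulated counts for this comparison (62065 loci, 200 changed), the quasi-likelihood test called 72 of 100 loci changed 8-fold and 18 of 100 changed 4-fold, with 3 unchanged loci called. The changed loci were drawn from all tested loci averaging at least 10 counts, so recovery at long loci was not measured. Shares, densities, CVs and positions were computed in Python 3.11.15 with scipy 1.17.1, and 0.5 CPM was added before log2 ratios to M82. The chromosome end was taken as the last locus.

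The rule for named loci took the 8 longest, the 8 most abundant, the 5 densest and 5 sparsest, the 5 highest and 5 lowest CVs among those averaging at least 50 counts, up to 5 loci per direction with the smallest p where every line lies beyond M82, the 3 longest runs, and 3 loci on each side of the length limit. The members, classes and alternatives were chosen with earlier results of these data known.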

Additional observations from a re-analysis of the deposited data

Results flagged for a closer look

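At 55 of the 273 long loci (20.1%), 1 line lay above and another below both M82 libraries, as at 16.4% of shorter loci averaging at least 10 counts. At 2 of them the difference was at least 2-fold in both directions (0.733%, against 0.365% of those shorter loci), with IL2-5 high and IL1-1 low each time. At Cluster_177695 on chromosome 10, IL2-5 had 89.4 CPM and IL1-1 had 1.31 CPM, against 35.1 and 29.4 CPM in M82, and the lines were 5.63 apart on the log2 scale. At Cluster_157546 on chromosome 9, IL2-5 had 90.2 CPM and IL1-1 had 1.53 CPM, against 29.3 and 21.8 CPM in M82, and the lines were 5.48 apart. Each line has 1 library, so the difference between lines was not tested.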

How the results depend on the processing

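No paired analysis was possible because the labels number the M82 libraries but none of the lines. Calls of long loci were 1 with edgeR's likelihood ratio test and 4 with DESeq2, with or without shrinkage, and 0 without each library in turn. The median density was 11.8 CPM per kb at a limit of 500 bp, 137 at 2000 bp and 225 for pooled reads over pooled length. The median CV was 25.6% at 2000 bp and 25.04 to 31.4% without each library. The difference of the median CV from shorter loci was -4.26 percentage points, turned to 0.0698 at a mean of at least 50 counts, and ranged from -7.33 to -3.73 without each library. The ratio of the highest to the lowest CPM was lower in long loci by a difference of medians of -0.335. The share of long loci in the outer 20% was 61.5% at 2000 bp. At the main length limit the share in the outer 10% was 28.1% (25.5% of all loci). The share of the reads of long loci in the outer 20% was 35.6% (49.2% for the reads of all loci). The difference in the share of reads between groups stayed positive but fell to 0.349 at 2000 bp and to 0.688 without the top 10 loci, and it ranged from 0.906, without IL2-5, to 2.69, without IL8-3. Against 1 M82 library in place of both, the loci at least 2-fold higher numbered 26 to 27 in IL1-1, 47 to 65 in IL2-5 and 19 to 38 in IL8-3, and those lower 13 to 19, 12 to 21 and 14 to 23. With library totals alone, 12 were lower in IL2-5. The cause of these shifts was not tested. The 10 loci named for lines beyond M82 were chosen because every line lay beyond both M82 libraries, which left little room for a change of sign. Their log2 fold changes kept their sign in 140 alternative fits, which is therefore no check on them, and 7 of these fits passed the threshold. The single-library checks of line folds, the count minimum of 50 for them and the non-overlap with library totals were added after seeing the data, as were the changes to the chromosome 1 limit and to the total for the share. Depth limits the sparse loci most, where M82 replicate 2 had as few as 1 or 2 counts.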
